A study of Mus musculus with 7 samples.

Results

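Macrophages are resident immune cells that enter the developing cochlea before birth, where they clear debris and lie among the mesenchyme, nerve fibres and vessels near the sensory epithelium. Their survival depends on the receptor Csf1r. Small adaptor proteins with an immunoreceptor tyrosine-based activation motif (ITAM) pass signals from their surface receptors to kinases of the Syk and Src families. Macrophages also make the complement protein C1q, assembled from A, B and C chains, which tags material for uptake. The macrophage genes described here are Mrc1, Tyrobp, Csf1r, C1qa, C1qb, C1qc, Cx3cr1, Aif1, Ptprc and Fcer1g, 10 genes chosen by name among the 54532 of a count table.

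Total RNA of cochlear epithelium from untreated mouse embryos at embryonic day 16 was sequenced in 4 Brg1 knockout and 3 control libraries. Smarca4 encodes Brg1, which uses ATP to move nucleosomes within the BAF complex, and the study concerns its role in the sensory epithelium. The labels name neither the Cre driver, the deleted exons, the genotype of the controls nor how many embryos made up a library. They do not say that libraries of a group came from different animals, so p-values here reflect only the spread among these libraries. Totals ran from 16097811 to 18871636 counts, and 3 counts corresponded to 0.159 to 0.186 CPM (counts scaled to library size), counting error only. The deposited counts are not whole. Their fractions put the libraries into a larger set of 5 (knockout replicates 1 to 3, control replicates 1 and 2) and a smaller set of 2 (knockout replicate 4, control replicate 3), of which the labels say nothing. Smarca4 was at 228 to 281 CPM in the knockouts and 356 to 376 CPM in the controls, without overlap (log2 fold change -0.56 ± 0.09 SE; edgeR adjusted p = 0.00338). The epithelial markers Epcam, Cdh1, Sox2, Epyc, Otog, Atoh1, Pou4f3 and Myo7a and the macrophage markers Adgre1, Cd68, Itgam, Spi1, Mpeg1 and Cd14 were all detected.

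Mrc1, a mannose receptor of tissue macrophages, and Tyrobp, an ITAM adaptor, were higher in the knockout libraries, and the other macrophage genes did not pass the test. That is 2 of 10 higher and 0 lower by edgeR at an adjusted p below 0.05, where 1.94% of the 17341 genes tested were higher, 4.87% lower and 6.82% either. DESeq2 also called 2 higher and 0 lower, where it called 2.98% of its genes higher, 6.67% lower and 9.65% either. All 10 passed the filter on low counts and had a log2 fold change above 0, as did 53.2% of the genes tested. Their median log2 fold change was 0.44, against 0.02 over all genes tested. In 3 of them, Mrc1, Tyrobp and Fcer1g, every knockout library lay above every control library, as in 9.27% of the genes tested. In bulk RNA, a change in the number of macrophages and a change in the RNA of each cannot be told apart.

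The promoter windows of Mrc1, which rose, and of the adjoining C1qb and C1qc, which did not pass the test, are shown because macrophage genes often carry the recognition sequence of PU.1, the myeloid transcription factor encoded by Spi1. Each is the 250 bases before the RefSeq start (mm10, GRCm38.p6), 5′ to 3′ on the strand of the gene. Capitals mark AGGAAGT or its reverse complement ACTTCCT, the core of the PU.1 sequence. The Mrc1 window is chr2:14229164-14229413 on the forward strand, the C1qb window chr4:136886201-136886450 and the C1qc window chr4:136892915-136893164, both on the reverse strand.
Mrc1: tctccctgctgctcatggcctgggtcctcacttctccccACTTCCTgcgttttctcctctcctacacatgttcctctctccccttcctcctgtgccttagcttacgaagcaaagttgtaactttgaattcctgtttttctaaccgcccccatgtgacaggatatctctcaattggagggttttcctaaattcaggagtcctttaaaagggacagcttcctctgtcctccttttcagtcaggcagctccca
C1qb: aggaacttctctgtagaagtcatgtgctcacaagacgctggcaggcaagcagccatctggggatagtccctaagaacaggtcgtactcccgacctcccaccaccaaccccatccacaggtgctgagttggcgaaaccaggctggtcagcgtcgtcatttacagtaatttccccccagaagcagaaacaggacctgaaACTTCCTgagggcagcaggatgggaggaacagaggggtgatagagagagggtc
C1qc: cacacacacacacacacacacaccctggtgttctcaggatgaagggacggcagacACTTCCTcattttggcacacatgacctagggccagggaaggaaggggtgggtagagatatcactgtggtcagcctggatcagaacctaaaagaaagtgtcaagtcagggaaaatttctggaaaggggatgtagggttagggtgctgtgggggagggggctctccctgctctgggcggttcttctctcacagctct
The match began 211 bases before the start in Mrc1, 53 before it in C1qb and 195 before it in C1qc. RefSeq windows were matched for 7 of the 10 genes, and 4 of these, Mrc1, C1qb, C1qc and Ptprc, held the core on either strand. Of all 32851 single windows of that length 7.69% held it. This is a share of windows and not of genes: the 7 genes had 8 windows, 2 of them for Ptprc. The longer form GAGGAAGT, which contains the core, was in C1qc alone among the 7 and in 2.44% of all windows. The letters were chosen after the sequences were seen, and a match is a description only.

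Levels are compared between genes in FPKM, a unit that corrects for gene length and depth. In controls C1qa was highest at 14.8 ± 3.02 FPKM (SD, n = 3), followed by C1qb at 12.9 ± 0.974, C1qc at 6.60 ± 1.01, Fcer1g at 6.47 ± 3.94 and Tyrobp at 5.55 ± 1.08 FPKM. Csf1r was at 4.32 ± 0.591 FPKM, Cx3cr1 at 3.44 ± 0.392, Mrc1 at 3.09 ± 0.635, Aif1 at 1.34 ± 0.141 and Ptprc at 0.0780 ± 0.0150 FPKM. In that order C1qa and C1qb, C1qc and Fcer1g, Fcer1g and Tyrobp, and Cx3cr1 and Mrc1 differed by less than the larger of their SDs, and the other neighbours by more. By median FPKM over all 7 libraries, knockouts included, C1qa stood at percentile 81.7 of the genes tested, Mrc1 at percentile 46.7 and Ptprc at percentile 0.750. FPKM divides by gene length, which for Ptprc is 18313 bases, and its libraries held 23 to 40 counts.

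Mrc1 (ENSMUSG00000026712, chromosome 2, 14229392 to 14332057, mm10, forward strand) encodes the mannose receptor CD206, which takes up glycoproteins and marks border and perivascular macrophages. It was at 30.9, 35.2, 29.7 and 29.8 CPM in the knockouts, replicates 1 to 4, and at 15.4, 23.7 and 21.6 CPM in the controls, replicates 1 to 3. Every knockout library was above every control library, with control replicate 1 the lowest. The means were 31.4 ± 2.62 CPM (SD, n = 4) and 20.2 ± 4.33 CPM (SD, n = 3), a log2 fold change of 0.64 ± 0.14 (SE; 95% interval 0.32 to 0.95; edgeR adjusted p = 0.0211). Some endothelial cells also make Mrc1.

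Tyrobp (ENSMUSG00000030579, chromosome 7, 30413760 to 30417585, mm10, forward strand) encodes DAP12, the adaptor of TREM2 and related receptors. In the same order of libraries it was at 5.51, 6.10, 7.09 and 8.61 CPM in knockouts against 3.66, 3.11 and 4.64 CPM in controls. The groups did not overlap. The log2 fold change was 0.84 ± 0.22, with a 95% interval of 0.36 to 1.32 and an edgeR adjusted p = 0.0430. Trem2 itself was at 5.96 ± 1.45 CPM in knockouts and 5.93 ± 0.206 CPM in controls.

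Fcer1g (ENSMUSG00000058715, chromosome 1, 171229572 to 171234365, mm10, reverse strand) encodes the gamma chain shared by Fc receptors of macrophages and mast cells. It was at 7.86, 12.3, 12.6 and 18.1 CPM in knockouts against 7.73, 7.82 and 1.75 CPM in controls. The lowest knockout lay just above the highest control, and the highest and lowest of all libraries were those of the smaller set. Its log2 fold change, 1.14 ± 0.50 (95% interval -0.03 to 2.31; edgeR adjusted p = 0.246), was the largest of the 10 and did not pass. It was 0.70 ± 0.28, edgeR adjusted p = 0.220 without control replicate 3, and 0.49 ± 0.24, edgeR adjusted p = 0.344 in the larger set alone, with adjusted p from 0.183 to 0.633 over 14 alternatives.

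**Figure D1:**
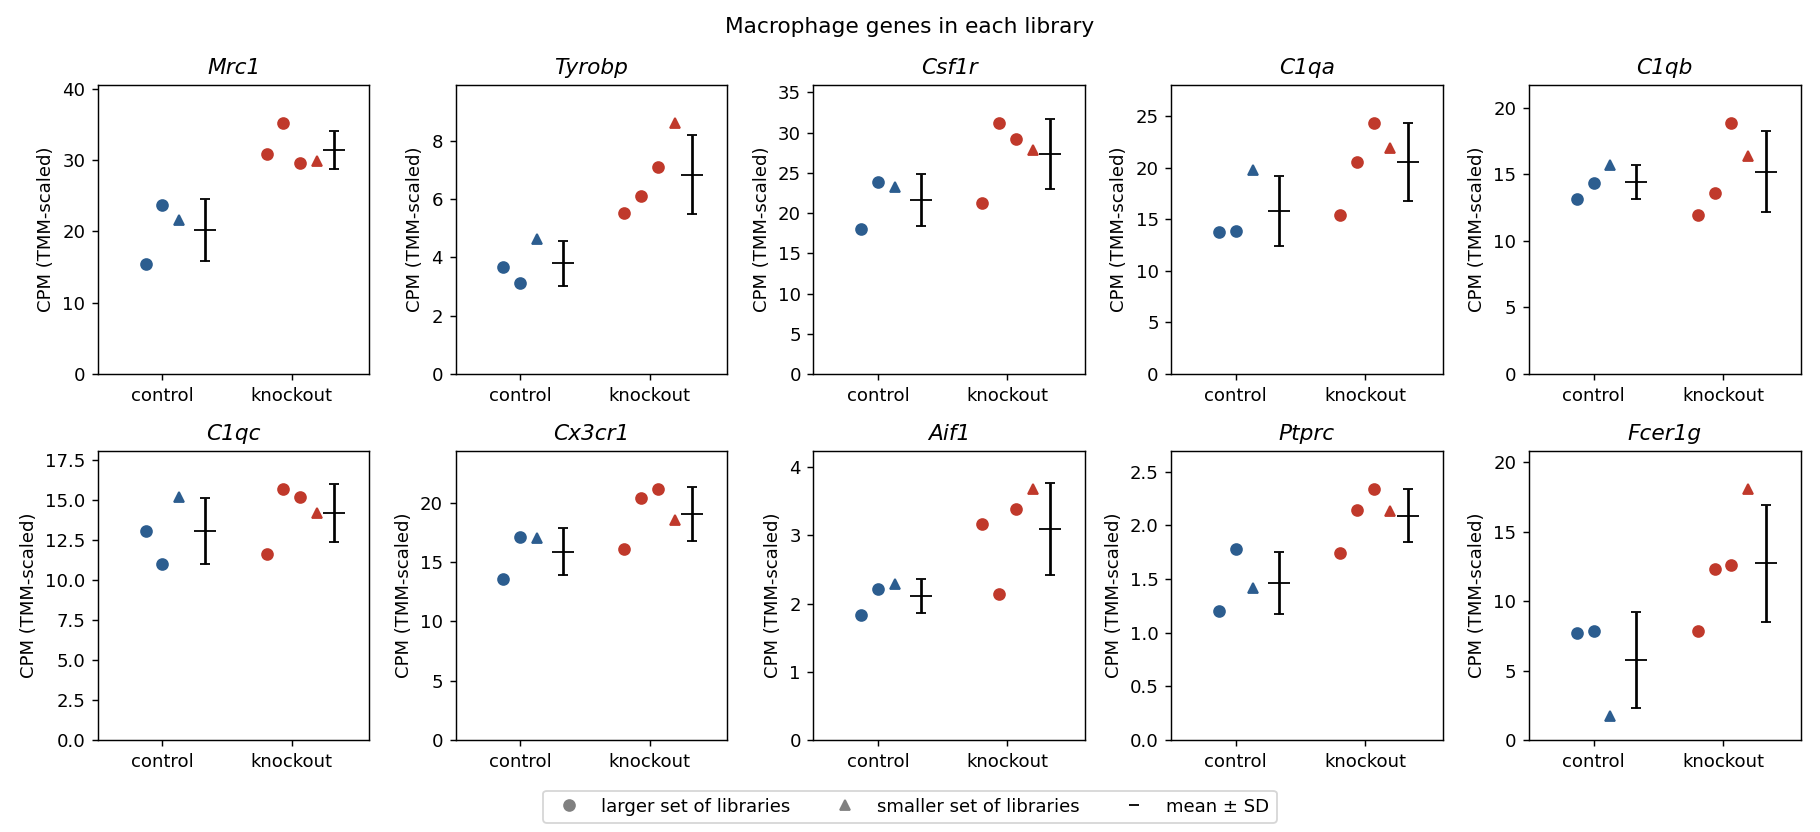
Level of each macrophage gene by library in CPM scaled by TMM factors (y axis), controls in blue and knockouts in red; circles are the larger set of 5 libraries, triangles the smaller set of 2, and black bars the mean ± SD. Mrc1 and Tyrobp separate the groups, Fcer1g runs from 1.75 CPM in control replicate 3 to 18.1 CPM in knockout replicate 4, and the groups overlap for C1qb and C1qc.

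Csf1r (ENSMUSG00000024621, chromosome 18, 61105572 to 61132149, mm10, forward strand) is the receptor for Csf1 and Il34. Its knockout libraries were at 21.2, 31.2, 29.2 and 27.9 CPM and its controls at 17.98, 23.8 and 23.2 CPM, so knockout replicate 1 fell within the control range and the other 3 above it. It did not pass the test (0.34 ± 0.15; edgeR adjusted p = 0.212; unadjusted p = 0.0414). Its span overlaps Hmgxb3 on the other strand, which was at a mean of 42.1 CPM with a log2 fold change of -0.18, and the sources used here do not say whether counting used strand.

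Cx3cr1 (ENSMUSG00000052336, chromosome 9, 119901616 to 120069879, mm10, reverse strand), the fractalkine receptor of microglia and tissue macrophages, gave 16.1, 20.4, 21.2 and 18.5 CPM in knockouts against 13.6, 17.1 and 17.0 CPM in controls, with overlap (0.26 ± 0.14; edgeR adjusted p = 0.305). Its annotated span also overlaps the tested genes Wdr48, Gorasp1, Csrnp1 and Ttc21a, which makes its count less certain. Across the 7 libraries Cx3cr1 and Csf1r were the most alike of the 45 pairs among the 10 genes (Pearson r = 0.972 over log2(CPM + 0.5)). All 45 pairs had an r above 0, with a median of 0.58, and the points share libraries, depth and the group difference.

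The C1q genes lie side by side on the reverse strand of chromosome 4 (mm10), with C1qb (ENSMUSG00000036905) at 136880129 to 136886187, C1qc (ENSMUSG00000036896) at 136889804 to 136893065 and C1qa (ENSMUSG00000036887) at 136895917 to 136898803. C1qa was at 15.4, 20.5, 24.4 and 21.9 CPM in knockouts against 13.7, 13.9 and 19.8 CPM in controls (0.38 ± 0.18; edgeR adjusted p = 0.251). C1qb gave 11.9, 13.6, 18.9 and 16.3 CPM against 13.1, 14.4 and 15.7 CPM (0.07 ± 0.16; edgeR adjusted p = 0.845). C1qc gave 11.6, 15.7, 15.2 and 14.2 CPM against 13.1, 11.0 and 15.2 CPM (0.12 ± 0.16; edgeR adjusted p = 0.726). The groups overlapped in each, and the 95% intervals of C1qb (-0.28 to 0.43) and C1qc (-0.22 to 0.46) span 0.

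Aif1 (ENSMUSG00000024397, chromosome 17, 35170991 to 35176068, mm10, reverse strand) encodes Iba1, an actin-binding protein of macrophages. It was at 3.16, 2.14, 3.39 and 3.68 CPM in knockouts against 1.83, 2.22 and 2.29 CPM in controls, with knockout replicate 2 among the controls (0.55 ± 0.26; edgeR adjusted p = 0.249). Ptprc (ENSMUSG00000026395, chromosome 1, 138062861 to 138175708, mm10, reverse strand) encodes CD45, a phosphatase of all nucleated blood cells. It was at 1.75, 2.14, 2.34 and 2.14 CPM against 1.202, 1.78 and 1.42 CPM, with knockout replicate 1 just under control replicate 2 (0.51 ± 0.27; edgeR adjusted p = 0.303). These were the least abundant, at 35 to 62 and 23 to 40 counts a library, with 95% intervals of -0.02 to 1.11 for Aif1 and -0.08 to 1.10 for Ptprc.

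**Figure D2:**
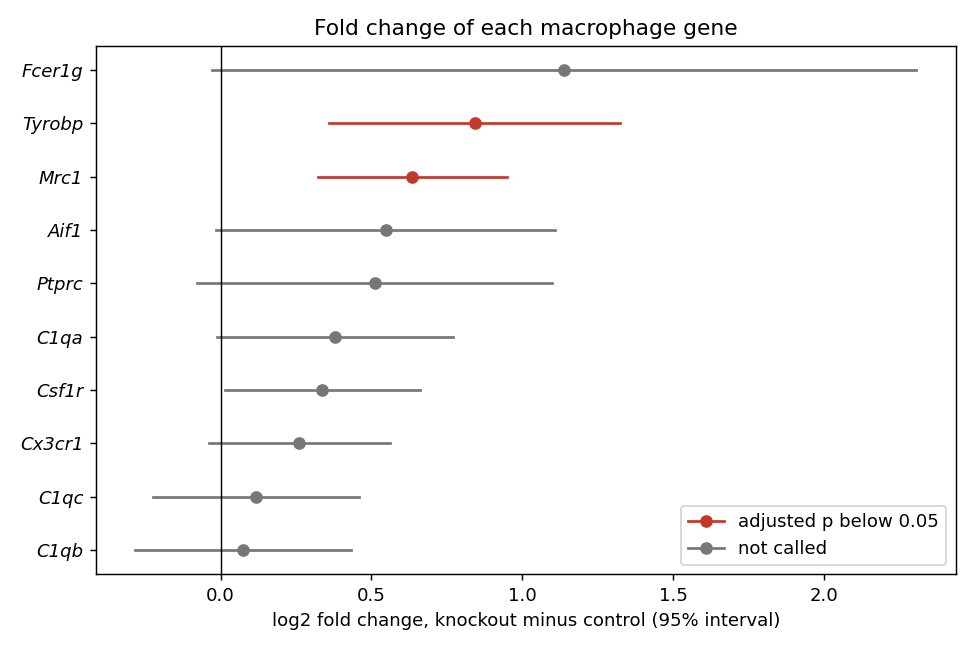
Log2 fold change, knockout minus control, of each macrophage gene (x axis; point with 95% interval from edgeR), called genes in red. All 10 points are above 0, and the intervals of Mrc1, Tyrobp and Csf1r exclude 0, of which Csf1r did not pass after adjustment.

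Summed over the 10 genes, the knockout libraries held 125, 159, 164 and 161 CPM and the controls 101, 119 and 123 CPM. Knockout replicate 1 was just above the highest control. The ratio of Mrc1 to Csf1r in FPKM was 1.12, 0.865, 0.780 and 0.821 in knockouts against 0.655, 0.763 and 0.714 in controls, and that of C1qa to C1qb was 1.35, 1.58, 1.35 and 1.40 against 1.10, 1.01 and 1.31. These 2 of the 5 ratios computed did not overlap between groups. They were singled out after their values were seen, so they carry no test.

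**Figure D3:**
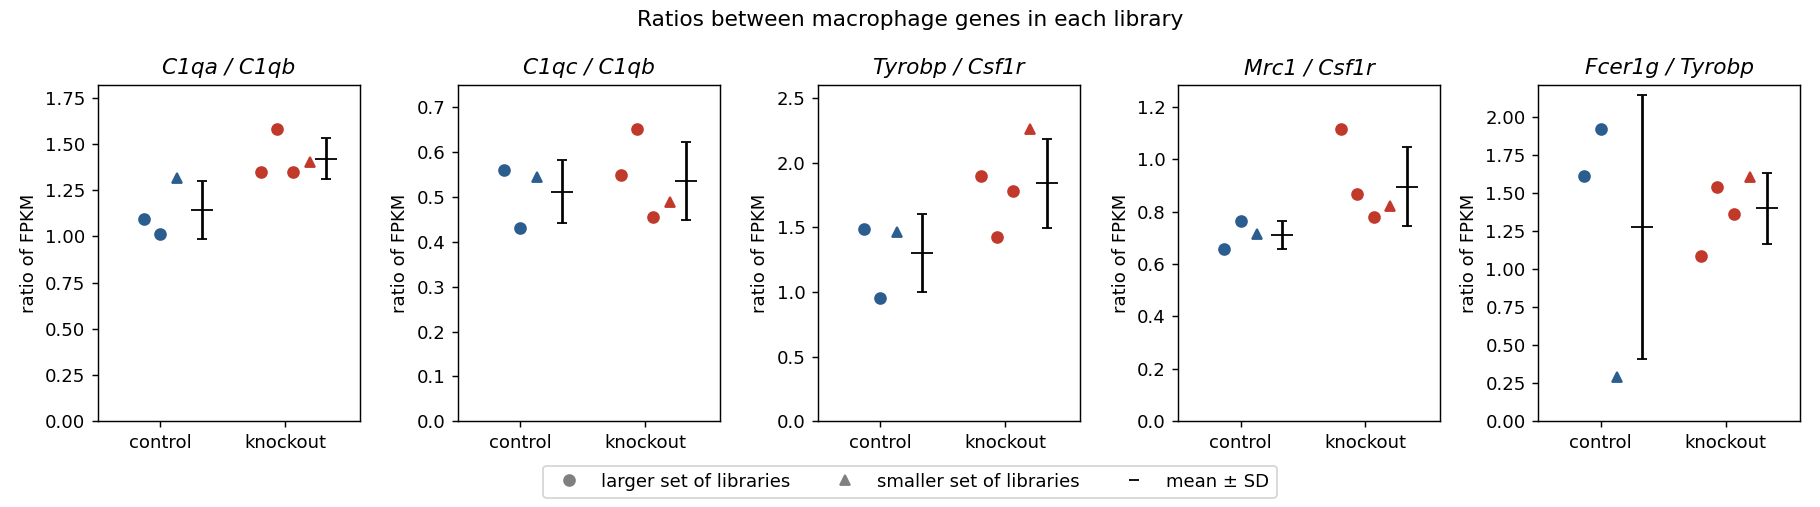
Ratio of FPKM between pairs of macrophage genes (y axis) in each library, controls in blue and knockouts in red, circles for the larger and triangles for the smaller set of libraries, bars for mean ± SD. The C1qa to C1qb and Mrc1 to Csf1r ratios separate the groups, and the Fcer1g to Tyrobp ratio is 0.287 in control replicate 3 and 1.09 or more elsewhere.

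The calls of Mrc1 and Tyrobp depended on single libraries. Mrc1 passed in 11 of 14 alternatives, with adjusted p from 0.00112 to 0.0770. It did not pass in the larger set alone (0.71 ± 0.18, edgeR adjusted p = 0.0770), without control replicate 1 (0.46 ± 0.12, edgeR adjusted p = 0.0685) or without knockout replicate 2 (0.58 ± 0.15, edgeR adjusted p = 0.0559). Tyrobp passed in 6 of 14, with adjusted p from 0.00969 to 0.151. It did not pass in the larger set alone (0.88 ± 0.24, edgeR adjusted p = 0.0930), without control replicates 1 or 2 (edgeR adjusted p = 0.129 and 0.151) or without knockout replicates 2, 3 or 4 (edgeR adjusted p = 0.0640, 0.0901 and 0.101), nor in 2 further alternatives that use the replicate numbers. In the larger set alone edgeR called 0 of the 10 in either direction, where it called 1.25% of genes higher, 2.49% lower and 3.74% either. In counts as deposited, not scaled for depth, Mrc1 was 208 counts higher in knockout in the larger set and 106 higher in the smaller, and Tyrobp 47 and 60.0 higher. C1qb differed by 4.67 counts in the larger set and -13 in the smaller.

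**Figure D4:**
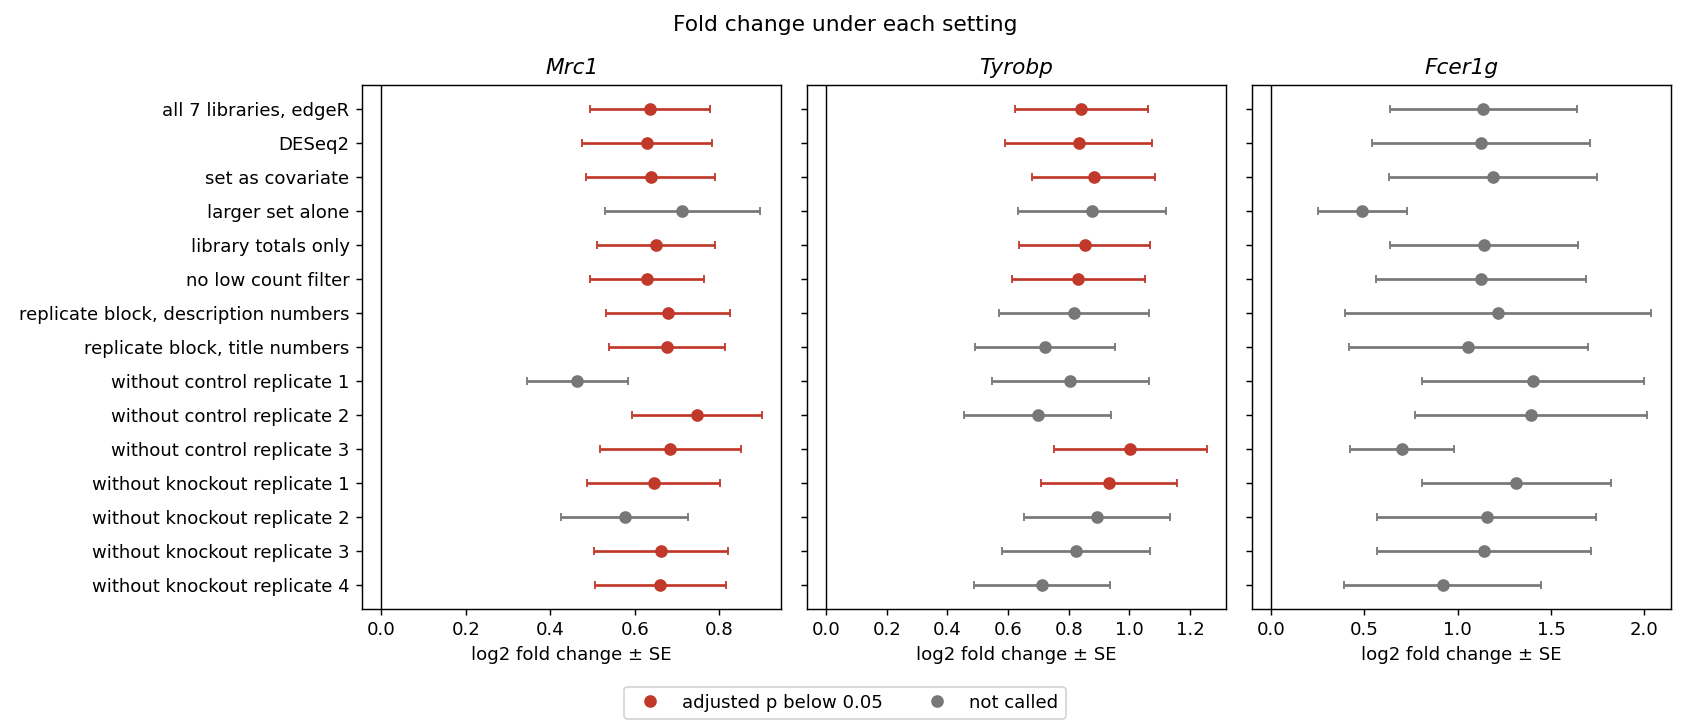
Log2 fold change ± SE (x axis) of Mrc1, Tyrobp and Fcer1g with all 7 libraries and under 14 alternatives (rows), red where the adjusted p was below 0.05. Mrc1 lies between 0.46 and 0.75 and Tyrobp between 0.70 and 1.003, while Fcer1g is lowest, at 0.49, in the larger set alone.

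Further macrophage genes were listed with earlier results of these data known. Of 40, 38 were tested, with 0 higher, 1 lower and a median log2 fold change of 0.14. Among all genes tested edgeR called 1.94% higher and 4.87% lower. Before adjustment 5 were higher at an edgeR p below 0.05, as were 9.39% of all genes. DESeq2 called 1 higher and 1 lower, where it called 2.98% of its genes higher and 6.67% lower. Adgre1 (F4/80) was at 3.95 ± 0.720 CPM in knockouts and 2.57 ± 0.716 CPM in controls (0.62 ± 0.26; edgeR adjusted p = 0.192). Spi1 was at 7.44 ± 2.33 and 5.83 ± 1.74 CPM (0.35 ± 0.27; edgeR adjusted p = 0.501). Fcgr3, an Fc receptor that signals through the Fcer1g chain, had the smallest p among those with a higher knockout mean, at 4.04, 7.65, 7.03 and 8.91 CPM in knockouts against 4.65, 2.94 and 2.40 CPM in controls (1.05 ± 0.30; edgeR adjusted p = 0.0632).

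Neuron genes were lower in the knockout libraries. Of 14 tested, 10 were lower and 0 higher, with a median of -1.38, where edgeR called 4.87% of all genes lower and 1.94% higher. In the larger set alone 6 were lower and 0 higher, where 2.49% of all genes were lower. Among the lower genes, Nefl, Nefm and Nefh passed in 14, Pou4f1 in 6 and Elavl4 in 4 of 14 alternatives. The summed level of the neuron genes was 522 to 813 CPM in knockouts and 1629 to 1811 CPM in controls. Their part in the macrophage values was not tested.

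Genes of border and perivascular macrophages included 2 of 14 higher and 0 lower, with a median of 0.37. DESeq2 called 3 higher and 2 lower, and before adjustment edgeR had 5 higher and 2 lower (p below 0.05). Over all genes tested edgeR called 1.94% higher and 4.87% lower, and DESeq2 2.98% and 6.67%. Before adjustment the edgeR shares were 9.39% and 11.8%. Stab1, a scavenger receptor also made by some endothelium, was at 78.7, 87.9, 81.4 and 95.9 CPM in knockouts against 53.0, 76.3 and 57.1 CPM in controls (0.47 ± 0.12; edgeR adjusted p = 0.0471). Dab2, an endocytic adaptor also made by other cell types, gave 154, 148, 159.8 and 168 CPM against 117, 122 and 104 CPM (0.46 ± 0.08; edgeR adjusted p = 0.00634). Neither gene overlapped between groups. Stab1 passed in 5 of 14 alternatives, with adjusted p from 0.00749 to 0.260, and Dab2 in 13 of 14, with adjusted p from 2.27e-05 to 0.0646. Leaving out control replicate 1 or 3, or any knockout library, ended the call of Stab1. Lyve1, a hyaluronan receptor of these macrophages and of lymphatic vessels, was at 10.5 ± 2.10 CPM in knockouts and 6.70 ± 0.279 CPM in controls (0.65 ± 0.18; edgeR adjusted p = 0.0533). Maf, a transcription factor of these macrophages and of other cells, was at 39.4, 50.4, 63.6 and 51.3 CPM in knockouts against 77.5, 64.2 and 64.8 CPM in controls, with every knockout library below every control library (-0.43 ± 0.14; edgeR adjusted p = 0.103). The list summed to 526 to 654 CPM in knockouts and 697 to 869 CPM in controls, of which Ednrb, also a neural crest and glial gene, made 35.2 to 116 and 274 to 441 CPM (-1.89 ± 0.45; edgeR adjusted p = 0.0716).

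Microglia genes had 0 of 11 called by edgeR or DESeq2, with 2 higher and 0 lower before adjustment (p below 0.05). Fcrls, an Fc receptor-like gene of microglia, had the smallest p, at 9.11, 12.04, 10.8 and 12.2 CPM in knockouts against 8.10, 6.94 and 8.62 CPM in controls (0.48 ± 0.16; edgeR adjusted p = 0.103). ITAM signalling genes had 0 of 13 called by either tool, 4 higher and 0 lower before adjustment, and 1 higher in the larger set alone. Over all genes 9.39% were higher and 11.8% lower before adjustment, and 1.25% were called higher in the larger set alone. Vav1, an exchange factor that acts after the adaptors, gave 2.40, 2.83, 3.21 and 2.49 CPM against 1.67, 0.999 and 2.24 CPM (0.74 ± 0.30; edgeR adjusted p = 0.176). For Vav1 every knockout library lay above every control library.

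Of 20 tested ligands and recruitment genes edgeR called 1 lower and 0 higher, against 4.87% lower and 1.94% higher over all genes tested. Pros1, a ligand of the uptake receptors Mertk and Tyro3, was at 38.6, 31.1, 24.8 and 30.9 CPM in knockouts against 48.4, 43.7 and 44.5 CPM in controls (-0.54 ± 0.13; edgeR adjusted p = 0.0282) and passed in 6 of 14 alternatives, with adjusted p from 0.00398 to 0.151; leaving out any control, or knockout replicate 2, 3 or 4, ended the call. The Csf1r ligands Csf1 (0.07 ± 0.14; edgeR adjusted p = 0.828) and Il34 (0.92 ± 0.54; edgeR adjusted p = 0.367) did not pass, nor did Cx3cl1, the ligand of Cx3cr1 (0.33 ± 0.13; edgeR adjusted p = 0.182). Of 13 other complement genes 0 were called by edgeR or DESeq2, and 0 passed an unadjusted p below 0.05; Cfp, which encodes properdin, was at 19.0, 22.8, 26.3 and 35.7 CPM in knockouts against 22.2, 19.6 and 11.4 CPM in controls (0.55 ± 0.26; edgeR adjusted p = 0.275). As for Fcer1g, the highest and lowest libraries were those of the smaller set, and the log2 fold change was 0.30 without control replicate 3 and 0.12 in the larger set alone (adjusted p = 0.785, with 0.147 to 0.785 over the alternatives).

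Of 19 tested common leukocyte genes 1 was lower and 0 higher, with a median of 0.03. The shares over all genes tested were 4.87% lower and 1.94% higher by edgeR, and 6.67% and 2.98% by DESeq2. Before adjustment edgeR had 0 higher and 2 lower (p below 0.05), where 9.39% of all genes tested were higher and 11.8% lower. DESeq2 called 0 higher and 2 lower. Coro1a, an actin regulator of leukocytes that neurons also make, was at 23.9, 19.4, 23.4 and 26.9 CPM in knockouts against 28.4, 35.5 and 32.8 CPM in controls (-0.46 ± 0.12; edgeR adjusted p = 0.0476), and passed in 4 of 14 alternatives, with adjusted p from 0.0105 to 0.190; leaving out any control, or knockout replicate 1, 2 or 3, ended the call. Of 17 tested genes of inflammation and interferon response 1 was lower and 0 higher. It was Spp1, a secreted phosphoprotein also made by bone, at 13.97, 10.8, 24.9 and 26.7 CPM in knockouts against 110.0, 91.8 and 89.7 CPM in controls (-2.35 ± 0.32; edgeR adjusted p = 0.00812). In this list of 17, edgeR had 0 higher and 3 lower before adjustment (p below 0.05), and DESeq2 called 0 higher and 1 lower. The cytokine genes Tnf, Il1b, Il6 and Il10 had at most 2 counts in a library.

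Mast cell genes were also examined, since they share Fcer1g. Tpsb2, a tryptase, was at 4.15, 4.28, 3.58 and 4.04 CPM in knockouts against 2.09, 0.888 and 2.24 CPM in controls (1.201 ± 0.30; edgeR adjusted p = 0.0346). It was the 1 of 5 tested that edgeR called, 0 were lower, and DESeq2 called 3 higher. All 5 had a log2 fold change above 0, with a median of 1.01. The shares over all genes tested were 1.94% called higher by edgeR, 2.98% called higher by DESeq2 and 53.2% above 0. Cpa3, a carboxypeptidase, was at 3.09 ± 0.535 and 1.52 ± 0.552 CPM (1.01 ± 0.30; edgeR adjusted p = 0.0718), and Cma1, a chymase, at 3.65 ± 0.963 and 1.37 ± 0.912 CPM (1.40 ± 0.46; edgeR adjusted p = 0.103). Control replicate 2 was the lowest library for these 3, and Tpsb2 passed in 4 of 14 alternatives, with adjusted p from 0.00506 to 0.116; leaving out control replicate 1 or 2, or any knockout library, ended the call. The 8 listed genes summed to 264 to 332 CPM in knockouts and 243 to 290.0 CPM in controls, mostly Gata2, which other cell types make, and Fcer1a had no counts. Their part in the Fcer1g values was not tested.

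Other blood cells were compared by lists of their own. Of 16 lymphocyte genes 4 were tested, Cd3e, Ms4a1, Ncr1, Klrb1c and Gzma had no counts, and the list summed to 8.505 to 11.8 CPM in knockouts and 6.66 to 8.62 CPM in controls. Of 11 neutrophil genes 3 were tested, with sums of 9.06 to 17.3 and 11.4 to 12.9 CPM, of which Prtn3, whose span overlaps Plppr3, was the largest in every library. Neither list, nor the 2 tested platelet genes, had a gene called by edgeR or DESeq2 or with an unadjusted p below 0.05. Of 5 tested monocyte and dendritic genes edgeR called 0, DESeq2 1 lower, and 2 were lower at an unadjusted p below 0.05. Over all genes, DESeq2 called 6.67% lower, and 11.8% were lower in edgeR before adjustment. Erythroid genes, globins among them, summed to 1086 to 2291 CPM in knockouts and 1594 to 2144 CPM in controls. Of 9 tested, 0 were called by edgeR or DESeq2 or had an unadjusted p below 0.05. In the larger set alone 1 was called lower, as were 2.49% of all genes.

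Tissue around the epithelium was compared in the same way. Mesenchyme genes were higher in 3 of 13, namely Twist1, Prrx1 and Pdgfra, and lower in 0, with sums of 2970.1 to 3957 CPM in knockouts and 3060.0 to 3418 CPM in controls. In the larger set alone 0 of them were called, and Twist1 passed in 12, Prrx1 in 7 and Pdgfra in 6 of 14 alternatives. Leaving out control replicate 1 ended the call of Twist1 and Pdgfra, and leaving out control replicate 2 or 3 or knockout replicate 2 or 3 that of Prrx1 and Pdgfra. DESeq2 called 3 higher and 1 lower. Endothelial genes were called in 0 of 15 by edgeR or DESeq2, with 2 higher at an unadjusted p below 0.05 and sums of 678 to 782 and 626 to 711 CPM. Glial genes were lower in 3 of 10 and higher in 0, and in the larger set alone 1 was lower. Among the lower glial genes, Foxd3 passed in 14, Cdh19 in 8 and Mbp in 5 of 14 alternatives. Epithelial genes were higher in 2 of 18 and lower in 3, and in the larger set alone 1 was higher and 2 lower. Of the higher genes, Otogl passed in 9 and Cdh1 in 6 of 14 alternatives, and of the lower, Fgf10 in 14, Epyc in 7 and Sox2 in 3. Apart from Foxd3 and Fgf10, each of these glial and epithelial calls was ended by leaving out 1 of several single libraries. Of 5 lymphatic endothelial and 7 pericyte genes tested edgeR called 0, with 2 and 0 at an unadjusted p below 0.05, and DESeq2 called 1 lymphatic gene lower. The part of these tissues in the macrophage values was not tested.

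**Figure D5:**
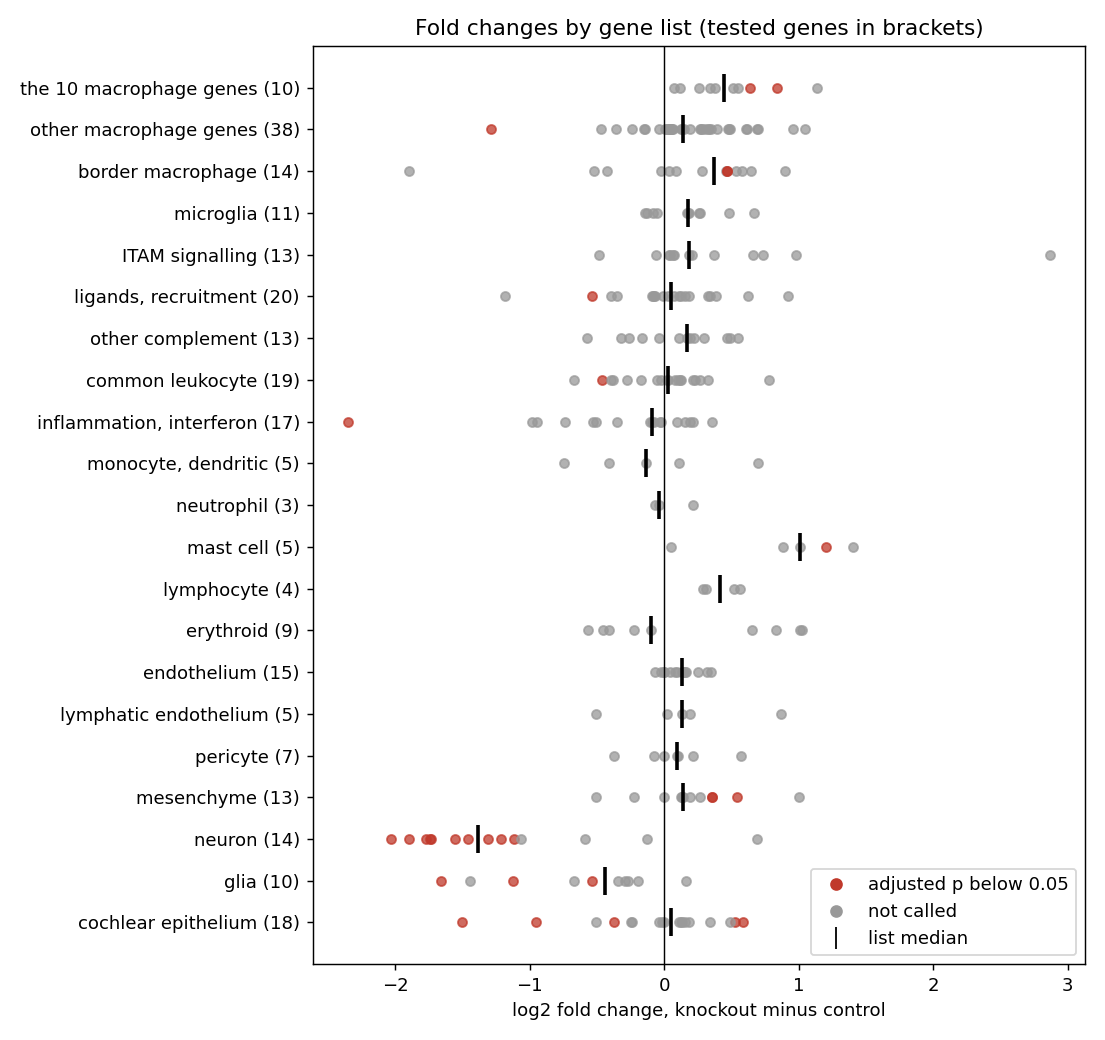
Log2 fold change, knockout minus control, of each tested gene (points; x axis) in the gene lists with 3 or more tested genes (rows), red where the adjusted p was below 0.05, black bars at list medians. The 10 macrophage genes lie above 0 with a median of 0.44, other macrophage genes centre at 0.14, mast cell genes at 1.01 and neuron genes at -1.38.

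The protein-coding genes most like the mean of the 10 genes across the 7 libraries, at a mean of at least 1 CPM, were Traf5, Mfsd13a, Col27a1, Rgs19, Sirt2, Rpgrip1, 1700016K19Rik, Plek2, Hes7 and Slc35a1. Their Pearson r ran from 0.976 to 0.992 over log2(CPM + 0.5), and 0 of these 10 were in the 22 lists. The points share libraries, depth and the group difference. Traf5, the closest, was at 5.35, 5.78, 6.23 and 6.30 CPM in knockouts against 4.81, 5.16 and 5.07 CPM in controls (0.24 ± 0.17; edgeR adjusted p = 0.464). Rpgrip1 (1.05 ± 0.28; edgeR adjusted p = 0.0447) and 1700016K19Rik (1.71 ± 0.35; edgeR adjusted p = 0.0133) were called higher. Rpgrip1 passed in 4 of 14 alternatives, with adjusted p from 0.0210 to 0.260, and lost its call without any 1 control or without knockout replicate 2, 3 or 4. 1700016K19Rik passed in 10 of 14, with adjusted p from 0.000556 to 0.107, and lost its call without control replicate 1.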

How the data were processed

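Gene counts and FPKM were deposited for 7 libraries (4 Brg1 knockout, 3 control). The submitters' processing notes list DESeq2 1.20.0, featureCounts 1.5.0-p3, HISAT2 2.0.5, CASAVA 1.8, fastp and build mm10, without their roles, settings or any use of strand. The deposited values are estimated counts, not whole numbers: 21283 genes were above 0 throughout, and each of their values was a multiple of 1/12 (tolerance 0.001). In 17795 genes the fractions divided the libraries into the same sets of 5 and 2. No label records the step that made them, and it can alter fold changes and p-values. The deposited FPKM match the rounded counts for 100% of values (relative tolerance 0.01).

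Counts were rounded and fitted in edgeR 4.0.16 under R 4.3.3 (TMM, filterByExpr, robust quasi-likelihood F-test, 5 residual degrees of freedom), with Benjamini-Hochberg adjustment over 17341 genes and a threshold of 0.05. The design had assumed raw counts. The biological coefficient of variation was 14.9%. The fit was also run on simulated whole counts that used the dispersions estimated here, and the outcome is not reported here. The simulated counts had no fractions and no larger and smaller set, so that run does not test those features. Alternatives were DESeq2 1.42.0, library totals without TMM, no filter, the set as covariate, the larger set alone, replicate blocks and each library left out. The 10 genes and the 22 lists were chosen with earlier results of these data known. Named were the 10 genes, Smarca4, up to 5 called genes per list or its 2 smallest p, and the 10 genes most like the 10; other genes named were chosen after their values were seen. Some genes that this rule names are not reported here.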

Additional observations from a re-analysis of the deposited data

Results flagged for a closer look

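Among 67 measures in the 4 knockout libraries, 4 had 1 library far from the other 3, where chance flags about 1 in 20. The summed level of the 10 macrophage genes was 125 CPM in knockout replicate 1 and 159 to 164 CPM in the others. Knockout replicate 1 was also apart for 1700016K19Rik, at 1.58 CPM against 3.53 to 3.88 CPM, and for Otogl, at 268 CPM against 179 to 192 CPM. Knockout replicate 4 was apart for Nefh, at 1.66 CPM against 4.33 to 4.75 CPM.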

How the results depend on the processing

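Of the 10 macrophage genes, edgeR called 2 higher with all libraries, 0 in the larger set alone, 1 with a replicate block by title numbers, 1 with a replicate block by description numbers (Tyrobp losing its call in both, adjusted p = 0.135 and 0.141), and 0 to 2 with each library left out; 0 were lower throughout. Over all genes, 337 were higher with all libraries, 518 with DESeq2, 207 with the set as a covariate, 219 in the larger set alone, 180 and 74 with the replicate block by title and by description numbers, and 106 to 348 with each library left out. Lower were 845 with all libraries, 438 in the larger set alone, 536 with the replicate block by description numbers, and 450 to 847 with each library left out. Smarca4 passed in all 14 alternatives. Libraries of equal number did not deviate together (r = -0.065, -0.134 and -0.397 for description numbers 1, 2 and 4). For unlike numbers r reached 0.389 (knockout replicate 4 with control replicate 2). With so few libraries these values can neither show nor exclude a pairing. The log2 fold change reversed with the replicate block by description numbers for C1qb (-0.0528) and S100a9 (-0.131). With each library left out it ran from -0.0457 to 0.174 for C1qb, -0.0107 to 0.232 for C1qc, -0.117 to 0.024 for Prtn3 and -0.227 to 0.768 for S100a9, changing sign. The cause was not tested. Fits with fewer libraries have fewer degrees of freedom, and Ptprc and Aif1 rest on at most 62 counts a library.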
